A study of Mus musculus with 18 samples.

Results

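The 4 Id genes and the bHLH repressors Twist1, Twist2, Bhlhe40 and Bhlhe41 were followed in immortalized mouse myoblasts with and without LAP2alpha. They were chosen as a list of 9 gene symbols with a shared role, and Msc, the ninth, was not analysed here. The 8 other genes are among the 19153 genes with values and among the 17672 tested, which needed over 5 expected counts in each library of some group. RNA-seq was done on 18 libraries in 6 groups of 3. The cells derive from a p53 knockout mouse, so both genotypes lack p53. LAP2alpha knockout (KO) cells had received Cas9 with a guide RNA, and the LAP2alpha wildtype (WT) control received the Cas9 plasmid without one. Both were sorted as pools of EGFP-positive cells and are not single clones. Cells were harvested while proliferating in 20% fetal calf serum (Prol), when they had reached confluence in the same medium (D0), or 48 h after the change to 5% serum, on day 2 of differentiation (D2).

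Muscle bHLH activators such as MyoD and myogenin bind E-boxes as dimers with E proteins. Id proteins have the helix-loop-helix but no basic region, so they pair with E proteins without binding DNA and thereby hold back the activators. Id genes are well-known targets of BMP-SMAD signalling and are usually high in dividing precursors. Twist proteins do bind DNA and repress myogenesis by taking up E proteins and by contacting MyoD and MEF2, while Bhlhe40 and Bhlhe41 (also called Dec1 and Dec2) are repressors of the circadian clock that respond to serum, hypoxia and differentiation signals.

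Values are CPM, the deposited normalised counts per 1000000. Library totals ranged from 26437823 to 41619015 expected counts. The targeted gene, Tmpo, is counted over all its isoforms, so LAP2alpha is not separated from LAP2beta. Tmpo was at 275 to 315 CPM in WT Prol and 228 to 260 in KO Prol libraries, at 239 to 302 and 191 to 259 at D0, and at 106 to 157 and 94.5 to 157 at D2, with the genotypes overlapping at D0 and D2. Of 8 myoblast markers, 7 had values. Their summed level was 117 to 268 CPM in the Prol and D0 libraries and 806 to 1328 CPM in WT D2 and 637 to 658 CPM in KO D2, and Myod1 itself was only at 0.736 to 5.88 CPM in Prol. Fibroblast markers (6 of 7 with values) summed to 295 to 4164 CPM before differentiation and were higher at D2, as given beside the results below. Endothelial markers (3 of 4) summed to at most 2.46, immune markers (2 of 4) to at most 8.004 and adipocyte markers (2 of 3) to at most 31.6 CPM, and Pax7, Tcf21, Cdh5, Ptprc, Adgre1 and Adipoq were not analysed here. The labels do not say that replicates were separate cultures, so p-values measure the spread between these libraries, which may be technical. In bulk RNA, fewer cells expressing a gene and less RNA per cell cannot be told apart.

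In the GENCODE M21 annotation of GRCm38, Id1 lies on chromosome 2 from 152736251 to 152737410 (plus strand), Id2 on chromosome 12 from 25093799 to 25097140 (minus), Id3 on chromosome 4 from 136143497 to 136145755 (plus) and Id4 on chromosome 13 from 48261228 to 48266026 (plus). Twist1 lies on chromosome 12 from 33957671 to 33959829 (plus) and Twist2 on chromosome 1 from 91801461 to 91848028 (plus). The related pair Bhlhe40 and Bhlhe41 is on chromosome 6, at 108660629 to 108666925 (plus) and 145858243 to 145865558 (minus). All are protein-coding. Their Ensembl identifiers are ENSMUSG00000042745 for Id1, ENSMUSG00000020644 for Id2, ENSMUSG00000007872 for Id3, ENSMUSG00000021379 for Id4, ENSMUSG00000035799 for Twist1, ENSMUSG00000007805 for Twist2, ENSMUSG00000030103 for Bhlhe40 and ENSMUSG00000030256 for Bhlhe41. Of the 8, only Twist2 overlaps another gene of its own strand, Gm29101, so its counts are less certain, and counting used strand.

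The bases before the RefSeq transcription start are shown for 4 of the genes because Id2 fell and Bhlhe41 rose at D2, and Twist1 and Twist2 are paralogs whose values are set side by side below. The sequences are from RefSeq (GRCm38.p6), which has an entry for 6 of the 8 genes. Each begins 250 bases before the RefSeq start and stops at the next annotated GENCODE exon of the gene. A longer GENCODE isoform of Id2 begins further upstream, so the Id2 stretch lies in the first intron of that isoform. E-boxes (CANNTG, the same on both strands) are in capitals.
Id2, chr12:25096254-25096342 (minus): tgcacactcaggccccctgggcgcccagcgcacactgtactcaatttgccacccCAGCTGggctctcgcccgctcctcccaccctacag
Bhlhe41, chr6:145865559-145865670 (minus): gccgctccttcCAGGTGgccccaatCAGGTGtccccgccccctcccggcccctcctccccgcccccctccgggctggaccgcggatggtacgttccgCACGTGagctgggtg
Twist1, chr12:33957421-33957670 (plus): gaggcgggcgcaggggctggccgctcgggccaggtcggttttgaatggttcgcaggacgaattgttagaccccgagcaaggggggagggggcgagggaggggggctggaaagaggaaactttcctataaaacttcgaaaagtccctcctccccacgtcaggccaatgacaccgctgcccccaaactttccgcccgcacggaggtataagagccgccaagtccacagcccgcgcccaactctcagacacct
Twist2, chr1:91801211-91801460 (plus): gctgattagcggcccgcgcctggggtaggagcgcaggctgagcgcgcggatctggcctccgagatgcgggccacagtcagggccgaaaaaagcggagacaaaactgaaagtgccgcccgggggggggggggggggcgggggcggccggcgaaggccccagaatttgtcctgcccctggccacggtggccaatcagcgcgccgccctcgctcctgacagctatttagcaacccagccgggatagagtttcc
Within the full 250 bases, Bhlhe41 had 3 E-boxes, including CACGTG, the core that Bhlhe40 and Bhlhe41 themselves bind, which begins 153 bases before the start. Id2 had 1 E-box, beginning 196 bases before the start, and 1 match to GGCGCC, a motif known from BMP-SMAD elements, beginning 231 bases before it. Twist1, Twist2, Id3 and Id4 had none of the E-box letters in this window, and Id4 had 1 GGCGCC. Of all 32851 promoter windows of this length, 66.2% held at least 1 CANNTG, 6.02% held CACGTG and 9.59% held GGCGCC, both strands being searched. The SMAD box GTCT was found in 82.9% of windows and in all of these genes with an entry except Id4. The cyclic AMP response element TGACGTCA was found in 1.55% of windows and in none of the 6. These matches describe the letters and do not show binding.

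Before differentiation, Id1 and Id3 were by far the most abundant of the 8 genes per kb. Per kilobase of exon, WT Prol cells had a mean of 159 CPM per kb for Id1, 106 for Id3 and 44.5 for Id2. The repressors with a DNA-binding domain were lower, with Twist1 at 13.5, Twist2 at 8.85, Bhlhe40 at 3.00 and Bhlhe41 at 1.47 CPM per kb. Id4 was lowest at 1.09 CPM per kb. KO Prol cells had the same order. At D2 in WT, Id3 led with 65.1 CPM per kb, followed by Id1 at 46.3, Twist1 at 20.7, Id2 at 15.1, Bhlhe40 at 11.2, Twist2 at 5.09, Bhlhe41 at 4.38 and Id4 at 0.667. In KO D2 the order was the same except that Bhlhe40 (11.96 CPM per kb) stood above Id2 (11.5), a difference well within the spread of the libraries.

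**Figure D1:**
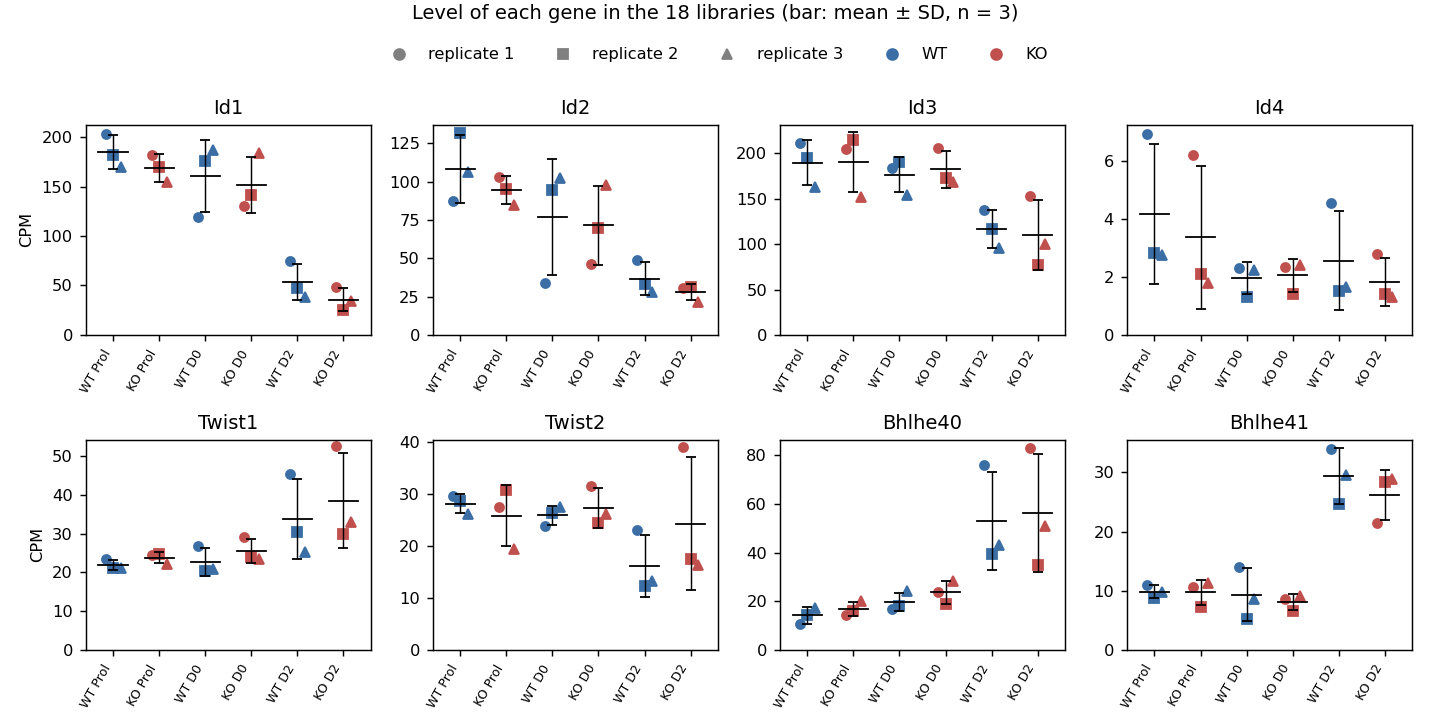
CPM of each gene (y axis, linear from 0) in the 6 groups (x axis). Symbols are single libraries by replicate number, blue for WT and red for KO, and bars give the mean ± SD of 3 libraries. Id1, Id2 and Id3 are lowest at D2 and Bhlhe40 and Bhlhe41 highest, with Bhlhe41 at 21.4 to 34.0 CPM at D2 and at most 14.1 elsewhere.

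From Prol to D2, Id1, Id2 and Id3 fell and Bhlhe40 and Bhlhe41 rose in both genotypes, and Id4 was called in neither. In WT, 4 genes were lower (Id1, Id2, Id3 and Twist2) and 2 higher (Bhlhe40 and Bhlhe41) by limma with Benjamini-Hochberg adjusted p under 0.05. Over all genes tested, 14.1% were called lower and 16.6% higher in this comparison. In KO, 3 genes were lower (Id1, Id2 and Id3) and 3 higher (Twist1, Bhlhe40 and Bhlhe41), against 15.2% and 17.1% of all genes. At D2 the proliferation genes and most fibroblast markers had also moved. All 10 proliferation genes were lower in both genotypes, with summed levels of 2721 to 3341 CPM in the Prol libraries and 385 to 667 CPM at D2. Of the fibroblast markers, 4 of 6 were higher (Pdgfra, Thy1, Dcn and Lum). The summed level of all 6, called or not, went from 427 to 2210 CPM in WT Prol to 1927 to 12470 in WT D2, and from 524 to 1559 in KO Prol to 3322 to 13770 in KO D2. Most of this sum was Col1a1, at 12260 CPM in WT D2 replicate 1, which was not called (limma adjusted p = 0.098 in WT and 0.0676 in KO). It was nevertheless higher at D2 in every replicate number, for example from 402.5 to 2351 CPM in WT replicate 3 and from 504.4 to 3182 in KO replicate 3. The replicate block called 5 of the 6 markers higher in both genotypes, in fits that called 47.7% (WT) and 48.6% (KO) of all genes. Without Col1a1 the sum was 24.6 to 47.0 CPM in WT Prol and 130 to 210.8 in WT D2, and 20.1 to 52.1 in KO Prol and 140 to 322 in KO D2. The part of these shifts in the results for the Id and bHLH genes was not tested.

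Id1, the most abundant Id gene per kb in Prol and D0, had the largest fall of the 8 genes on the log2 scale. Its level was 204, 182 and 169 CPM in WT Prol (replicates 1 to 3) and 74.4, 47.9 and 38.8 CPM in WT D2. In KO it was 182, 169 and 154 CPM in Prol and 48.3, 25.2 and 34.0 CPM at D2. Each D2 library was thus below each Prol library. Such separation was common, as D2 and Prol libraries did not overlap in 43.5% of all genes in WT and 47.7% in KO. These shares also stand beside the separations of D2 from Prol given for the genes below. For Id1, no other library of any state came near the D2 levels, the nearest being WT D0 replicate 1 at 120 CPM. The log2 fold change was -1.83 (SE 0.27, limma adjusted p = 7.77e-05), or 3.56-fold lower, in WT and -2.28 (SE 0.27, limma adjusted p = 1e-05), or 4.87-fold lower, in KO.

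Id2, which is also known for tying E proteins to cell-cycle control through RB, showed a similar fall. WT Prol libraries had 87.3, 132 and 106 CPM and WT D2 libraries 48.8, 33.6 and 27.9 CPM. KO Prol libraries had 103, 95.5 and 85.1 CPM and KO D2 libraries 30.8, 31.4 and 21.8 CPM. Again Prol and D2 did not overlap. The log2 fold change was -1.58 (SE 0.37, limma adjusted p = 0.00408) in WT and -1.77 (SE 0.37, limma adjusted p = 0.00167) in KO.

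Id3 kept a larger share of its level. It was at 211, 195 and 163 CPM in WT Prol and at 138, 117 and 95.6 CPM in WT D2. In KO it was at 205, 214 and 152 CPM in Prol and at 153, 77.1 and 99.8 CPM at D2. The WT groups were separate by a narrow margin, and in KO the highest D2 library stood at the level of the lowest Prol library. The fall was 1.63-fold in WT (log2 -0.71, SE 0.23, limma adjusted p = 0.0307) and 1.78-fold in KO (log2 -0.83, SE 0.23, limma adjusted p = 0.0121). The call was lost in 4 of 6 fits that left out 1 WT library (adjusted p 0.0221 to 0.131) and in 2 of 6 that left out 1 KO library (0.00158 to 0.075), namely without any of WT Prol replicates 1 and 2, WT D2 replicates 2 and 3, and KO Prol or KO D2 replicate 2.

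Id4, known mainly from the nervous system, had the lowest mean of the 8 genes in every group. It ranged from 1.32 to 6.95 CPM, or 38 to 259 expected counts a library. WT Prol replicate 1 and KO Prol replicate 1 had 6.95 and 6.22 CPM, while the other Prol libraries had 1.78 to 2.83 CPM. At D2, replicate 1 was again highest, at 4.54 CPM in WT and 2.80 in KO, against 1.32 to 1.65 in the others. The log2 differences between D2 and Prol, -0.75 in WT (95% interval -1.91 to 0.41) and -0.72 in KO (-1.88 to 0.44), did not pass the test.

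The Twist paralogs are close relatives with much the same DNA-binding domain, and without a replicate block Twist1 was called higher in KO and Twist2 lower in WT. The difference between the paralogs was not tested. Twist1 was at 23.4, 21.1 and 21.2 CPM in WT Prol and 45.4, 30.5 and 25.4 CPM in WT D2, and at 24.4, 24.8 and 22.2 CPM in KO Prol and 52.7, 30.0 and 33.0 CPM in KO D2. All D2 libraries were above all Prol libraries of the same genotype, and replicate 1 was highest at D2 in both. The log2 fold change was 0.65 in KO (SE 0.23, limma adjusted p = 0.0399) and 0.58 in WT (SE 0.23, limma adjusted p = 0.0675), so that WT missed the threshold. The KO call was lost in 4 of 6 fits that left out 1 library, namely without any one KO Prol replicate or without KO D2 replicate 1 (log2 0.40 to 0.81 over the 6, adjusted p 0.0271 to 0.183).

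Twist2 was lower at D2 in WT, from 29.6, 28.7 and 26.1 CPM in Prol to 23.1, 12.3 and 13.2 CPM. In KO it was at 27.4, 30.7 and 19.3 CPM in Prol and 39.0, 17.4 and 16.4 CPM at D2. The WT groups were separate, whereas KO D2 replicate 1 was the highest of all 18 libraries and the other KO D2 libraries were below the Prol libraries. The log2 fold change was -0.86 in WT (SE 0.30, limma adjusted p = 0.0417) and -0.18 in KO (SE 0.30, limma adjusted p = 0.701). The WT call was lost in 5 of 6 fits that left out 1 library, all but that without WT D2 replicate 1 (adjusted p 0.0102 to 0.153). Whether the Twist2 change differed between genotypes was tested as an interaction, with a log2 difference of 0.67 (95% interval -0.23 to 1.58) and an unadjusted limma p of 0.135.

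Bhlhe40 rose most in D2 replicate 1. It was at 10.6, 14.4 and 17.3 CPM in WT Prol and 76.1, 39.4 and 43.2 CPM in WT D2. In KO it was at 14.3, 16.02 and 20.1 CPM in Prol and 82.9, 35.1 and 50.9 CPM at D2. The lowest D2 library was above the highest Prol library of its genotype. The rise was 3.65-fold in WT (log2 1.87, SE 0.31, limma adjusted p = 0.000287) and 3.18-fold in KO (log2 1.67, SE 0.31, limma adjusted p = 0.000719).

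Bhlhe41 rose in both genotypes. WT Prol libraries had 10.9, 8.76 and 9.86 CPM and WT D2 libraries 34.0, 24.6 and 29.6 CPM. KO Prol libraries had 10.6, 7.25 and 11.3 CPM and KO D2 libraries 21.4, 28.4 and 29.0 CPM. Replicate 1 was the highest of the D2 libraries in WT and the lowest in KO, whereas Bhlhe40 was highest in replicate 1 of both. The rise was 2.97-fold in WT (log2 1.57, SE 0.30, limma adjusted p = 0.000773) and 2.73-fold in KO (log2 1.45, SE 0.30, limma adjusted p = 0.00143).

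**Figure D2:**
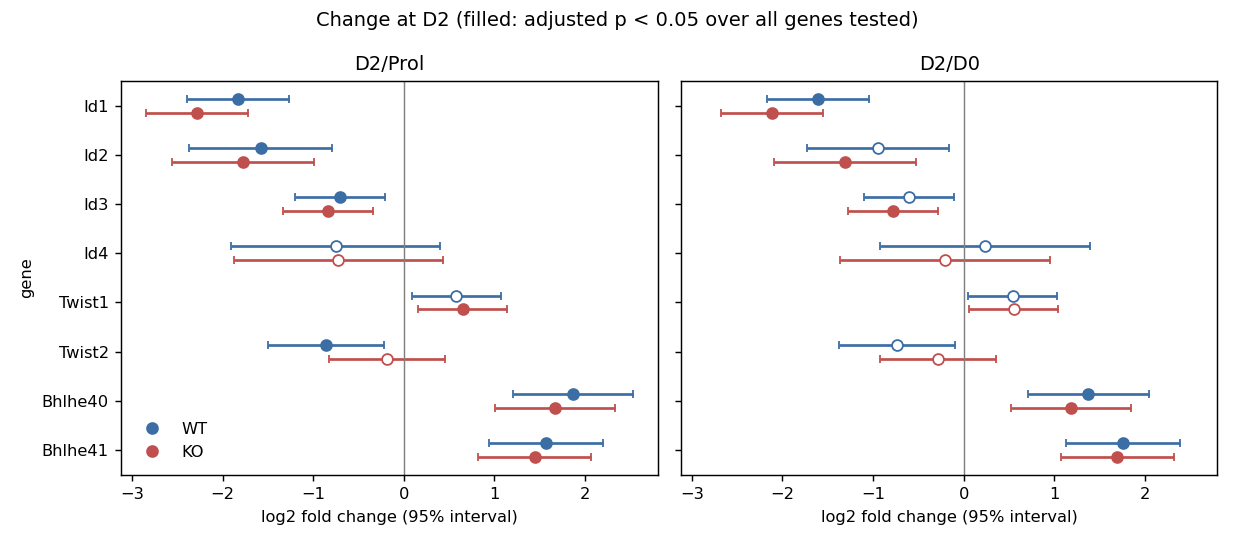
Log2 fold change (x axis) of each gene (y axis) at D2 against Prol (left) and against D0 (right), blue for WT and red for KO. Bars are 95% intervals of the limma fit, and filled points passed an adjusted p of 0.05 over all genes tested. Id1, Bhlhe40 and Bhlhe41 are filled in all 4 comparisons and Id4 in none.

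Replicate 1 stood apart in other genes too. Summed fibroblast markers were at 12470 CPM in WT D2 replicate 1 against 1927 and 2499 CPM in replicates 2 and 3, and at 13770 against 4062 and 3322 CPM in KO D2. Without Col1a1 they were at 210.8, 130 and 148 CPM in WT D2 and 321.8, 308.9 and 139.9 CPM in KO D2. Id1, Id3, Id4, Twist1, Twist2 and Bhlhe40 were highest in this replicate at D2 in both genotypes. The TMM scaling factor of D2 replicate 1 was 0.909 in WT and 0.931 in KO, against 1.108 to 1.177 in the other D2 libraries. A lower factor gives a higher CPM for the same share of counts. The part of the fibroblast markers or of the scaling in the replicate 1 levels was not tested. Without replicate 1 of every group, the numbers of these genes called were 6 in WT and 5 in KO for D2 against Prol, where 36% and 36.9% of all genes were called, and Twist1 in KO had an adjusted p of 0.0508. The log2 change was then -2.02 for Id1 WT D2/Prol and -2.47 for Id1 KO D2/Prol, and 1.39 for Bhlhe40 WT D2/Prol and 1.24 for Bhlhe40 KO D2/Prol.

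Between proliferation and confluence no gene of the 8 was called. D0 against Prol gave no call by limma in either genotype at an adjusted p of 0.05 and none at an unadjusted p of 0.05, at which 2.17% of all genes passed in WT and 1.12% in KO, and voom weights also called none. Bhlhe40 was at 16.9, 18.2 and 24.0 CPM in WT D0 and 23.7, 18.9 and 28.2 CPM in KO D0. It was higher at D0 than at Prol in all 3 replicate numbers of both genotypes, with log2 differences of 0.49 in each (95% intervals -0.17 to 1.16 in WT and -0.18 to 1.15 in KO). Id2 was at 33.6, 94.8 and 102 CPM in WT D0 and 46.3, 70.0 and 98.1 CPM in KO D0. Replicate 1 was lowest in both genotypes, in WT within the range of the D2 libraries, and replicate 3 was near the Prol level. Id1 had the same pattern in a weaker form, at 120, 176 and 187 CPM in WT D0 and 130, 142 and 184 CPM in KO D0. In D0 replicate 1, summed fibroblast markers were at 4164 CPM in WT and 3043 CPM in KO against 295 to 751 CPM in the other D0 libraries, and their part in the Id2 levels was not tested. Without Col1a1 the sums were 83.2 and 93.5 CPM against 16.8 to 40.3 CPM. The summed proliferation genes were at 2845 and 3015 CPM in D0 replicate 1, between those of replicates 2 (2367 and 2156) and 3 (3069 and 3107). Id4 was lower in all WT D0 libraries (1.33 to 2.32 CPM) than in all WT Prol libraries (2.75 to 6.95), with a log2 difference of -0.99 (95% interval -2.15 to 0.17), and the replicate block gave it an unadjusted limma p of 0.0069 and an adjusted p of 0.66. Of all genes, 5.92% had WT D0 and WT Prol libraries that did not overlap.

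Against D0, which shares its D2 libraries with the comparison above, fewer calls were made. In WT, Id1 was lower (log2 -1.61, limma adjusted p = 0.000317), and Bhlhe40 (1.38, limma adjusted p = 0.00406) and Bhlhe41 (1.76, limma adjusted p = 0.000367) were higher, where 11.3% of all genes were called lower and 14.7% higher. In KO, Id1 (-2.12, limma adjusted p = 2.53e-05), Id2 (-1.31, limma adjusted p = 0.0147) and Id3 (-0.78, limma adjusted p = 0.0198) were lower, and Bhlhe40 (1.18, limma adjusted p = 0.00986) and Bhlhe41 (1.70, limma adjusted p = 0.000474) were higher, where 12.9% of all genes were called lower and 15.3% higher. Id2 in WT missed the threshold (-0.95, limma adjusted p = 0.0724), and WT D0 replicate 1 at 33.6 CPM lay within the range of the D2 libraries. Without that library the Id2 change was -1.46 (adjusted p = 0.00207). The number called in WT was 6 in place of 3 without WT D2 replicate 1, adding Id2, Id3 and Twist2, and also 6 without replicate 1 of every group, in fits that called 24.8% and 33.3% of all genes. In KO it was 3 without KO D2 replicate 3 (23.6% of all genes), where Id2 and Id3 lost the call. Id3 also lost it without KO D0 replicate 1 or KO D2 replicate 2, Id2 without KO D0 replicate 3, and Bhlhe40 without KO D2 replicate 1 (log2 0.86, adjusted p = 0.051). With the replicate number as a block, which pairs the KO libraries, Twist1 (log2 0.55) was also called in KO, at an adjusted p of 0.00771 in place of 0.0854, in a fit that called 22.4% of all genes lower and 23.6% higher.

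The balance between Id genes and their partners was described from levels per kb. The E protein genes Tcf3 (E2A), Tcf4 (E2-2) and Tcf12 (HEB) together had 60.02 ± 3.798 CPM per kb in WT Prol and 51.4 ± 8.98 in WT D2 (SD, n = 3), and the 4 Id genes together had 311 ± 26.3 and 127 ± 32.3 CPM per kb. The ratio of Id to E protein RNA was 5.21 ± 0.72 in WT Prol, 5.56 ± 2.25 in WT D0 and 2.47 ± 0.34 in WT D2. In KO it was 4.83 ± 0.72, 4.82 ± 1.36 and 2.02 ± 0.26 (SD, n = 3). Levels per kb divide by the merged exons of all isoforms, so the size of the ratio depends on exon length. In WT Prol, Tcf4 had a mean of 257 CPM but 9.39 CPM per kb, and Id1 had 185 CPM and 159 CPM per kb. The ratio therefore compares groups and does not show that Id RNA exceeded E protein RNA. The D2 libraries, at 1.81 to 2.69, were all below the 12 other libraries, of which the lowest was at 3.30. Among the E proteins none was called in WT at D2 against Prol, with Tcf3 at -0.59 (limma adjusted p = 0.0595, unadjusted p under 0.05), Tcf4 at 0.42 and Tcf12 at 0.28 on the log2 scale. Voom weights called none in WT either, and in KO Tcf3 was lower (-0.68, limma adjusted p = 0.0294). With the replicate block, Tcf4 was also called in KO (log2 0.54, limma adjusted p = 0.00814 in place of 0.141). In WT the block called 1 E protein gene higher and 1 lower, as many as in KO, in a fit that called 47.7% of all genes.

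Of the 4 myogenic regulatory factors, the activators that Id proteins restrain, Myod1 and Myog rose at D2 in both genotypes. Myod1 went from 2.59 ± 1.94 CPM in WT Prol to 88.9 ± 10.4 in WT D2 and from 3.63 ± 2.10 to 57.2 ± 15.6 in KO (SD, n = 3), with log2 fold changes of 5.45 (limma adjusted p = 2.05e-06) and 4.12 (limma adjusted p = 2.82e-05). Myog, which drives terminal differentiation, went from 0.780 ± 0.468 to 393 ± 136 CPM in WT and from 0.933 ± 0.578 to 198 ± 44.4 in KO (SD, n = 3). Myf5 (log2 -0.52 in WT and -0.30 in KO) and Myf6 (1.72 and 0.70) were not called without a replicate block. With the block, 3 of the 4 factors were called higher in WT and 2 in KO.

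Among further bHLH factors, not chosen as repressors only, and other repressors of MyoD activity, rises but no falls were called at D2 without a replicate block. Of 6 further bHLH factors with values, 5 were higher in WT and 3 in KO, with no fall called in that fit. The replicate block called 5 higher and 1 lower in WT and 3 higher in KO. The largest rise was that of Heyl, a Notch target, with a log2 of 4.07 in WT from a mean of only 0.0562 CPM in Prol to 0.631 CPM at D2, where 3 counts correspond to 0.0651 to 0.119 CPM. Of 6 other repressors of MyoD activity, 3 were higher in WT and 2 in KO and none lower, the largest rise in WT being that of Mdfi, an inhibitor that retains myogenic factors in the cytoplasm (log2 2.46, limma adjusted p = 0.0132). Mdfi in KO had a log2 change of 1.86 with a limma adjusted p of 0.0514, which was 0.00646 with the replicate block. The block also called Snai1, a zinc-finger repressor that competes for E-boxes, in KO (log2 -0.79, limma adjusted p = 0.00131 in place of 0.0893).

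Among 23 genes of the BMP-SMAD pathway, the main known inducer of Id genes, 6 were lower and 2 higher in WT D2 than in WT Prol, and 5 were lower and 2 higher in KO. With the replicate block, which pairs the KO libraries, 8 were lower and 3 higher in KO, where that fit called 23.9% of all genes lower and 24.6% higher. In WT the block called 7 lower and 3 higher, and 47.7% of all genes in either direction. The median log2 change of the list was 0.28 in WT and 0.10 in KO, beside -0.01 and 0.02 over all genes. The largest fall was in Smad9, a receptor-activated SMAD, from 39.1, 17.4 and 23.9 CPM in WT Prol to 3.91, 2.08 and 2.81 CPM in WT D2 (log2 -3.16, limma adjusted p = 2.28e-05) and by 2.54 on the log2 scale in KO (limma adjusted p = 0.00017). Chrd, whose product binds BMPs outside the cell, rose most, from 0.330 ± 0.222 to 6.40 ± 1.16 CPM in WT (SD, n = 3). The inhibitory SMADs Smad6 and Smad7, picked here after their values were seen, which are themselves induced by BMP or TGF-beta signals, had log2 changes of -2.08 and -1.95 in WT and of -1.95 and -2.04 in KO, called in both. The BMP ligands Bmp2, Bmp4, Bmp5, Bmp6 and Bmp7 were not called in either genotype, nor were Smad1, Smad5 and Smad4, although in KO the block gave Smad5 an adjusted p of 0.0278 and Smad4 one of 0.00964.

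**Figure D3:**
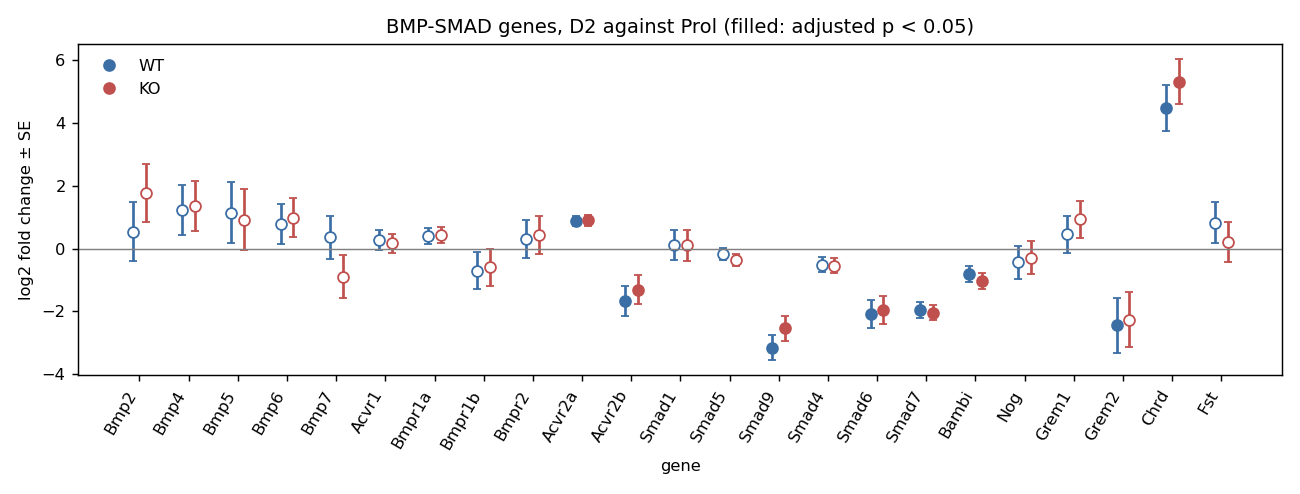
Log2 fold change ± SE (y axis) of 23 BMP-SMAD pathway genes (x axis) at D2 against Prol in WT (blue) and KO (red), from ligands at the left to secreted antagonists at the right. Filled points passed an adjusted p of 0.05. Smad9, Smad6 and Smad7 are filled below 0 in both genotypes, and Chrd lies highest at 4.48 and 5.32.

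Genes of the pathways tied to Bhlhe40 and Bhlhe41 were mixed. Of 15 circadian clock genes tested, 4 were higher and none lower in each genotype, the largest rise being that of Hlf, a PAR bZIP factor of the clock output (log2 2.79 in WT, from 0.171 ± 0.0656 to 1.17 ± 0.383 CPM, SD, n = 3). Arntl, which encodes the activator that Bhlhe40 and Bhlhe41 oppose, had a log2 change of 0.27 (limma adjusted p = 0.475). Of 10 hypoxia-induced genes, 3 were lower and 1 higher in WT, and 4 were lower and none higher in KO, with Ldha, lactate dehydrogenase A, falling by 1.86 on the log2 scale in WT and Egln3, an oxygen sensor, rising by 0.97. Of 10 serum immediate early genes, 1 was higher and 1 lower in each genotype, namely Egr2 (log2 2.83 in WT) and Myc (-1.27 in WT). With the replicate block, the counts in KO were 5 clock genes higher, 1 hypoxia-induced gene higher and 6 lower, and 1 immediate early gene higher and 2 lower, the second being Ier2 (log2 -0.83). In WT the block counts were 6 clock genes higher, 2 hypoxia-induced genes higher and 6 lower, and 2 immediate early genes higher and 1 lower.

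The loss of LAP2alpha was tested in each state. No gene of the 8 was called between KO and WT by limma at an adjusted p of 0.05 in any state, and voom weights called none. At an unadjusted p of 0.05 none passed in Prol, where 1.11% of all genes did, none at D0, where 1.47% did, and 1, Id1, at D2, where 1.96% did. With the replicate block none passed in Prol or at D0. At D2, Id1 (limma unadjusted p = 0.0333) and Twist2 (0.0454) passed with the block, as did 925 of the 17672 genes tested. By the cut in the study's methods (limma unadjusted p under 0.05, an absolute log2 change over 1.5 and at least 10 CPM in a library) none was called at D2, where 0.0736% of all genes were. That share was 13 genes. The study fitted voom values with a lane block and reported many more genes at D2, so this cut did not reproduce its list here. With a looser rule of over 1.5-fold in place of the log2 cut, again none was called at D2, where 0.464% of all genes were. With voom weights this looser rule called 172 of all genes and again none of the 8. With single libraries left out, 1 gene was called by it in some fits. This was Id1, lower in KO, without WT D2 replicate 3 or KO D2 replicate 1. It was Twist2, higher in KO, without WT D2 replicate 1 or KO D2 replicate 3. Averaged over the 3 states none passed an unadjusted p of 0.05 (2.3% of all genes did), and none did when the genotype difference at D2 was set against that in Prol (0.945% of all genes) or at D0 (1.78%).

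At D2, Id1 was at 48.3, 25.2 and 34.0 CPM in KO beside 74.4, 47.9 and 38.8 CPM in WT. KO was below WT in all 3 replicate numbers, though the groups overlapped. The log2 difference was -0.58 (95% interval -1.15 to -0.02, limma adjusted p = 1) at an unadjusted p of 0.0435, just short of a 1.5-fold change. The KO effect on Id1 at D2 was not shown to differ from that in Prol, with a log2 difference of -0.45 (95% interval -1.25 to 0.35). Id2 was likewise lower in KO D2 in all 3 replicate numbers, with a log2 difference of -0.37 (95% interval -1.16 to 0.41). Twist2 was higher in KO D2 in all 3, with a log2 difference of 0.53 (95% interval -0.12 to 1.17) and an unadjusted limma p of 0.102. With the replicate number as a block its unadjusted limma p was 0.0454, and its adjusted p was 0.939. The KO/WT Twist2 difference was 0.12 without KO D2 replicate 1 and 0.81 without WT D2 replicate 1. The summed fibroblast markers of these libraries were higher in KO D2 than in WT D2 in each replicate number as well, though without Col1a1 only in replicates 1 and 2. The summed myoblast markers were lower in KO D2 (658, 637 and 652.5 CPM) than in WT D2 (1328, 829.8 and 805.7 CPM). The part of either list in the Id1, Id2 and Twist2 differences was not tested.

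The remaining genes differed less between genotypes at D2. The log2 differences were -0.13 for Id3 (95% interval -0.63 to 0.37), -0.38 for Id4 (-1.53 to 0.78), 0.19 for Twist1 (-0.30 to 0.68), 0.06 for Bhlhe40 (-0.60 to 0.73) and -0.17 for Bhlhe41 (-0.79 to 0.46). In Prol the log2 differences of the 8 genes lay between -0.41 (Id4) and 0.26 (Bhlhe40), and at D0 between -0.10 (Bhlhe41) and 0.26 (Bhlhe40). Twist1 and Bhlhe40 were higher in KO in all 3 replicate numbers of both Prol and D0, by a log2 of 0.05 to 0.49 in any pair, and the groups overlapped in each case. The intervals of most of these genes include changes of 1.5-fold, so they do not show that KO and WT were alike.

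**Figure D4:**
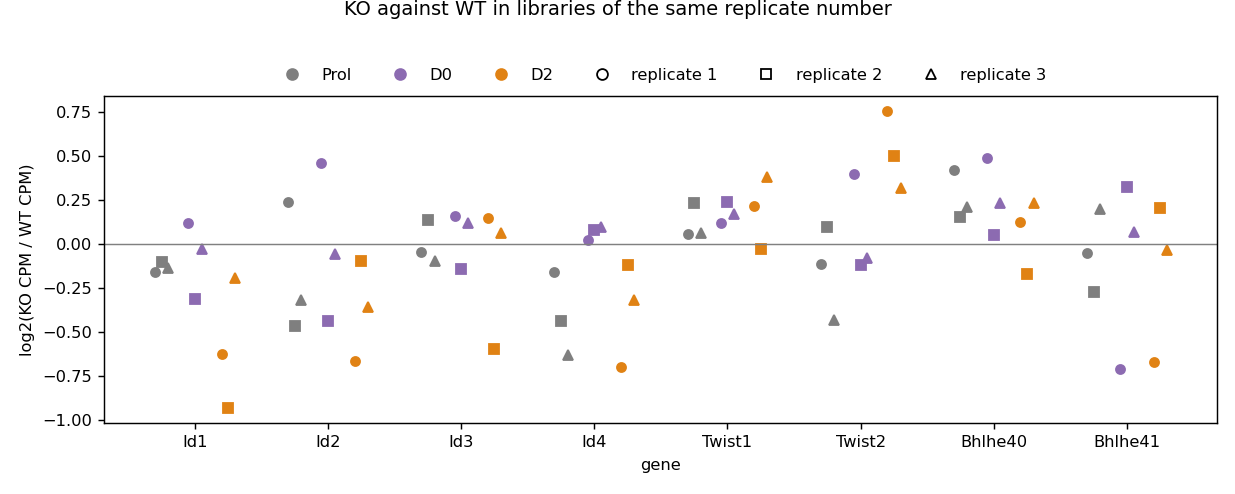
Log2 of the KO to WT ratio of CPM (y axis) in libraries of the same replicate number, for each gene (x axis) in Prol (grey), D0 (purple) and D2 (orange). At D2 all 3 points lie below 0 for Id1, Id2 and Id4 and above 0 for Twist2, and the points of most other genes lie on both sides.

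The genes were also compared with one another over the 18 libraries, as a description, since the points share libraries, scaling and the difference between states. On log2 CPM, Id1 correlated with Id2 (Pearson r = 0.90) and Id3 (0.89), and inversely with Bhlhe41 (-0.87). Twist1 and Twist2 had an r of 0.01 over all libraries but 0.82 after the mean of each group was removed. Bhlhe40 and Bhlhe41 had an r of 0.77 over all libraries and of -0.00 after removal of group means. The correlation of Bhlhe40 with Bhlhe41 over all libraries was thus not seen within groups, where 3 libraries a group leave it imprecise.

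Among 9469 genes with a mean of at least 10 CPM, the 2 whose log2 CPM was most like each gene over the 18 libraries were Bok (r = 0.99) and Amd1 (0.98) for Id1, Cdc34 (0.95) and Gm45716 (0.94) for Id2, and Nans (0.95) and Fam124a (0.94) for Id3. For Id4 they were Capzb (0.88) and Tjap1 (0.86). Twist1 was most like Ralb (0.98) and Dse (0.96), and Twist2 most like Fgf7 (0.90) and Pxdc1 (0.88). Bhlhe40 was most like Col5a3 (0.96) and Mt2 (0.96), and Bhlhe41 most like Lrp4 (0.97) and Jph2 (0.97). Lrp4 went from a mean of 16.6 CPM in WT Prol to 86.3 in WT D2 and from 19.02 to 82.0 in KO, and Amd1 fell from 167 to 43.0 CPM in WT and from 170 to 42.0 in KO.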

How the data were processed

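RNA was sequenced (strand-specific, poly(A)-selected libraries) from 18 samples grouped by their labels. Reads had been trimmed by the authors (cutadapt) and mapped to transcripts of GRCm38 by NextGenMap, and RSEM with tximport gave expected counts per gene. The deposited values are CPM, for which the authors scaled the expected count plus 0.5 to a TMM-adjusted library size. The expected counts, recovered from these, were whole for 37.5 to 49.8% of values under 20 (within 0.01), so no count test was used. A linear model with 1 factor of 6 groups was fitted to the log2 CPM of 17672 genes by limma 3.58.1 (R 4.3.3), with eBayes and its trend option. Adjusted p-values are Benjamini-Hochberg over all genes tested. Symbols were matched for 19072 of 19153 genes. The study blocked on a sequencing lane, which the labels do not give. The genes, lists and naming rule (all members, for each list the largest rise and fall in WT D2/Prol, and the 2 most alike genes) were chosen with earlier results of these data known. Levels per kb used the merged GENCODE M21 exons. Alternatives tried were scaling by library totals or by median of ratios, weights from voom, no filter, a pseudocount of 1 CPM, the replicate block, only the groups compared, each library left out and, chosen after seeing the data, replicate 1 of every group left out and the log2 cut of the study's methods. The fit was tested on simulated data. Figures were drawn with matplotlib 3.10.9.

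Same-numbered libraries deviated together (r over 0.1) in 40 of 45 pairs, and in every pair of the KO D2/Prol, KO D2/D0, D0/Prol and KO/WT comparisons, so numbers were taken to pair those libraries. In WT D2/Prol and WT D2/D0, replicate 3 had an r of 0.0393 and 0.01.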

Additional observations from a re-analysis of the deposited data

Results flagged for a closer look

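Between KO and WT, Id4 moved one way in every replicate number in some states and the other way in another. The mean log2 difference was -0.41 in Prol and -0.38 at D2, with KO lower in 3 of 3 replicate numbers, and 0.07 at D0, with KO higher in 3 of 3. The difference between D2 and D0 did not pass the limma interaction test (unadjusted p = 0.574), and that between Prol and D0 was not tested. Id4 had 38 to 259 expected counts a library.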

How the results depend on the processing

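The directions of Id1, Id2, Id3, Bhlhe40, Bhlhe41 and Twist1 in the comparisons of D2 with Prol and D0 held in every alternative fitted, and the calls of Id1 and Bhlhe41 in these 4 comparisons did too. Library totals alone shifted the median of all genes by 0.162 (WT D2/Prol) and 0.131 (KO D2/Prol) on the log2 scale and turned no direction there. In WT D2/Prol, Twist2 lost its call with median-of-ratios scaling (adjusted p = 0.0538) and Id3 with library totals (0.0574). In KO, Id3 and Twist1 lost theirs when only the groups compared were fitted (0.0538 and 0.0687). The number called in WT D2/D0 was 7 with the replicate block, which called 43.2% of all genes against 26% without it, and 6 without replicate 1 of every group. In WT the block gave Twist1 D2/Prol an adjusted p of 0.00526 (47.7% of all genes called, against 30.7% without it), but only 3 of 6 libraries in WT D2/Prol and 4 of 6 in WT D2/D0 correlated best with their own number. In the KO and KO/WT comparisons the block changed no other call of these 8 genes than Twist1 in KO D2/D0. By the 1.5-fold rule, Id1 was called in KO/WT D2 (1 gene) with median-of-ratios scaling and with library totals. With single libraries left out, the numbers called ranged from 4 to 6 in both WT D2/Prol and KO D2/Prol. They ranged from 3 to 6 in WT D2/D0, from 3 to 5 in KO D2/D0 and from 0 to 1 by the 1.5-fold rule in KO/WT D2. The cut of the study's methods, added after seeing the data, called 0 of the 8 genes in KO/WT in every fit.

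Signs turned only in values that were not called. Without replicate 1 of every group these were Id4 WT D2/D0 (-0.13), Id1 WT D0/Prol (0.048), Bhlhe41 KO/WT D0 (0.20) and Bhlhe41 KO/WT D2 (0.086). With single libraries left out, Twist2 KO D2/Prol ranged from -0.584 to 0.041, Id4 WT D2/D0 from -0.27 to 0.52, Id4 KO D0/Prol from -0.855 to 0.047, Id4 KO/WT Prol from -0.970 to 0.031 and Bhlhe41 KO/WT D0 from -0.46 to 0.25. In KO/WT D2 the ranges were -0.40 to 0.10 for Id3, -0.72 to 0.13 for Id4, -0.059 to 0.424 for Twist1 and -0.26 to 0.36 for Bhlhe40. Of 43 member values not named in the text, none was called in any fit and 26 changed sign in at least 1. The causes were not tested. With 3 libraries a group, the intervals of most KO/WT differences include 1.5-fold.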
